A study of Homo sapiens with 14 samples.

Results

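Cytosolic ribosomal protein genes were taken as all genes whose symbol in the platform annotation was RPL or RPS with a number, with or without a final A, L or X, or was RPLP0, RPLP1, RPLP2 or RPSA. RefSeq lists 81 protein-coding genes with such symbols, and 72 of them were analysed here, through 119 probes, among 20046 named genes of the array. These were 43 genes of the large subunit, 25 of the small subunit and the 4 paralogs RPL3L, RPL10L, RPL39L and RPS27L. Each gene is represented by its brightest probe within a table.

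The series holds 14 Illumina bead arrays of prostate cancer cells and asks which genes depend on FoxA1, a transcription factor that opens chromatin for other factors. Cells of LNCaP, which respond to androgen, held either a control shRNA (shCtrl) or one that targets FoxA1 (shFoxA1), on 4 arrays each: numbered replicates 1 and 2, whose titles name no medium, 1 array labelled R1881 and 1 labelled hormone-deprived. R1881 is a synthetic androgen. The protocol given for all 8 of these arrays is 3 days in charcoal-stripped medium and then 1 nM R1881 for 24 hours, and the descriptions call the R1881 arrays replicate 3. Further pairs of 1 array a side were LNCaP transfected with siRNA (siCtrl or siFoxA1), 22RV1 cells carrying shCtrl or shFoxA1, and PC-3M labelled Ctrl or FoxA1, for which the labels give overexpression. The protocol of the siRNA and 22RV1 arrays says that some experiments used the same androgen treatment. LNCaP and 22RV1 were kept in RPMI with 10% FBS, and the protocol of the PC-3M arrays also gives 10% FBS. Whether the shRNA lines are clones or pools, and the sequences of the shRNAs and the siRNA, are not given in the sources used here. No label states that the numbered replicates are separate cultures. The p-values therefore reflect how far these arrays spread, which may be technical. All values are of total RNA and are relative to the other genes of an array, so less RNA per cell and fewer cells cannot be told apart.

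Cytosolic ribosomal proteins assemble on ribosomal RNA in the nucleolus into the small subunit, which decodes mRNA, and the large subunit, which joins amino acids. Their mRNAs are among the most abundant of dividing cells. Most begin with a C followed by a run of pyrimidines, the terminal oligopyrimidine (TOP) motif, through which mTOR signalling controls their translation together. Such control acts on ribosome loading and need not change the amount of mRNA, which is what the arrays measured. In prostate cancer cells ribosome production is tied to growth signals that include androgen.

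The sequences around the annotated start are shown for the 6 members with an unadjusted p under 0.05 after FoxA1 knockdown and for the 2 members with a sequence whose difference lay nearest to 0. Of these 8, 6 hold such a run at the start, and RPS27L and RPL6 do not. They are from RefSeq (GRCh38.p14), 40 bases before the start and 20 bases from it, on the transcribed strand. Capitals mark the run from its first C within 5 bases of the start, with at least 4 further C or T after it. In RPL36A, RPL34, RPS7 and RPL7A the C and T extend upstream of the capitals.
RPL36A, chrX:101390971-101391030, plus strand: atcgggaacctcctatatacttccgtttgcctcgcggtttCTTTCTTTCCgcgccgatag
RPL34, chr4:108620536-108620595, plus strand: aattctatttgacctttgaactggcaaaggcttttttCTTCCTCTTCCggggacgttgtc
RPS7, chr2:3575220-3575279, plus strand: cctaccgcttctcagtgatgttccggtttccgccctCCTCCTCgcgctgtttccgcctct
RPL22, chr1:6199576-6199635, minus strand: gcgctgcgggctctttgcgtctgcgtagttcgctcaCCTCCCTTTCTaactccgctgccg
RPS18, chr6:33272035-33272094, plus strand: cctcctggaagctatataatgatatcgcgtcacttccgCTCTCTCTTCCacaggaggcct
RPS27L, chr15:63157458-63157517, minus strand: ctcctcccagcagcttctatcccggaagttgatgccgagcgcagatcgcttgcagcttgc
RPL6, chr12:112411423-112411482, minus strand: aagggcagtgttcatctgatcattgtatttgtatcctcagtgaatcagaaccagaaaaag
RPL7A, chr9:133348178-133348237, plus strand: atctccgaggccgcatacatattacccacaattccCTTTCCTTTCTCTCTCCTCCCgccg

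Of the 72 members, 60 matched the RefSeq promoter table by symbol, and the first listed start of each gene was used. The run, marked by the same rule, was found in 48 of these 60 (80%) and in 21.1% of 27305 genes. RPS27L, RPL10L and RPL6 at its first listed start were among the 12 without it. Over the 300 bases of the table, 250 before and 50 from the start, and on both strands, the ETS-type motif CCGGAAG was present in 21 members (35%) and in 10.7% of genes. The motif AAGATGGCG, known as a site of YY1, was present in 5 members (8.33%) and in 1.85% of genes. The forkhead motif TGTTTAC was present in 0 of the 60 windows and in 3.41% of genes. On the other strand CCGGAAG reads CTTCCGG, whose first letters can overlap the pyrimidine run. A match, or its lack, describes these letters alone.

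Most members were among the brightest genes of every array. Of the 100 brightest genes on an array, 29 to 44 were members, and the median member had a log2 level of 12.88 to 13.36 against 5.00 to 5.26 for the median gene. RPL41 was the brightest member in all 3 tables, with a mean log2 level of 13.97 on the 8 LNCaP shRNA arrays, followed there by RPS29 at 13.89 and RPS12 at 13.85. Log2 levels of different probes also carry probe affinity and are no measure of relative abundance. RPL10 was detected on 0 of 14 arrays by its brighter probe, and RPL3L, the paralog known from striated muscle, on 1 LNCaP shRNA array alone. The other 70 members were tested in the LNCaP shRNA fit beside 11892 genes in all.

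The whole series sets these limits. FOXA1 checked the labels: its log2 level was 1.02 lower with shFoxA1 (SE 0.15, n = 4 against 4, limma adjusted p = 0.0127) and also lower in the siRNA and 22RV1 pairs, but in PC-3M it was 1.51 lower on the array labelled FoxA1, 8.89 against 10.4, which goes against the label. The FoxA1 array had the lower mean probe intensity in 6 of the 7 pairs, with 210 against 238 in replicate 1, 167 against 285 with R1881, 157 against 190 in hormone-deprived medium, 436 against 447 with siRNA, 235 against 325 in 22RV1 and 208 against 222 in PC-3M. In the replicate 2 pair it was higher, with 242 against 229. Its part in the differences below was not tested. Of 6 prostate line markers, 5 or 6 were detected on each LNCaP and 22RV1 array and 2 on each PC-3M array, where KLK3, KLK2, FOLH1 and TMPRSS2 were undetected. Of 12 leukocyte, endothelial and fibroblast markers, 1 to 6 were detected on an array, and PTPRC, CD3E and CDH5 were undetected on all 14. With shFoxA1, KLK3 and KLK2 rose by 1.30 and 0.89 on the log2 scale, SLC45A3 fell by 2.66, the mesenchymal marker ANXA1 rose by 1.90 and the endothelial marker VWF fell by 0.97 (limma adjusted p = 0.0107 to 0.0468, and 0.00446 for SLC45A3). The part of these shifts in the results was not tested.

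In LNCaP with FoxA1 knockdown, most ribosomal protein genes had differences near 0 after quantile normalization. Of the 70 members, 0 passed limma's test at an adjusted p of 0.05 over all 11892 genes, in a fit with knockdown and the 3 medium labels as terms, against 7.9% of all genes. At an unadjusted p under 0.05 there were 6 members, 1 higher and 5 lower, or 8.57% against 27.3% of all genes (13.3% higher and 13.9% lower). The median log2 difference of the members was -0.04 (quartiles -0.12 and 0.03), with 49 below 0 and 21 above. For all genes the median was -0.01 (quartiles -0.20 and 0.20), with 51.0% below 0. The median was -0.04 for the 42 large-subunit members and -0.06 for the 25 small-subunit members. The member medians of the 4 single LNCaP shRNA pairs had an SD of 0.07. With cyclic loess in place of quantile normalization the median of the members was 0.02, with 33 below 0 and 37 above. With median scaling it was -0.22, with 65 below 0. The median of all genes was then -0.145, and 44 members lay below that value. Quantile normalization gives all arrays of a table the same distribution, so a shift shared by most of the brightest genes could be lost.

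**Figure D1:**
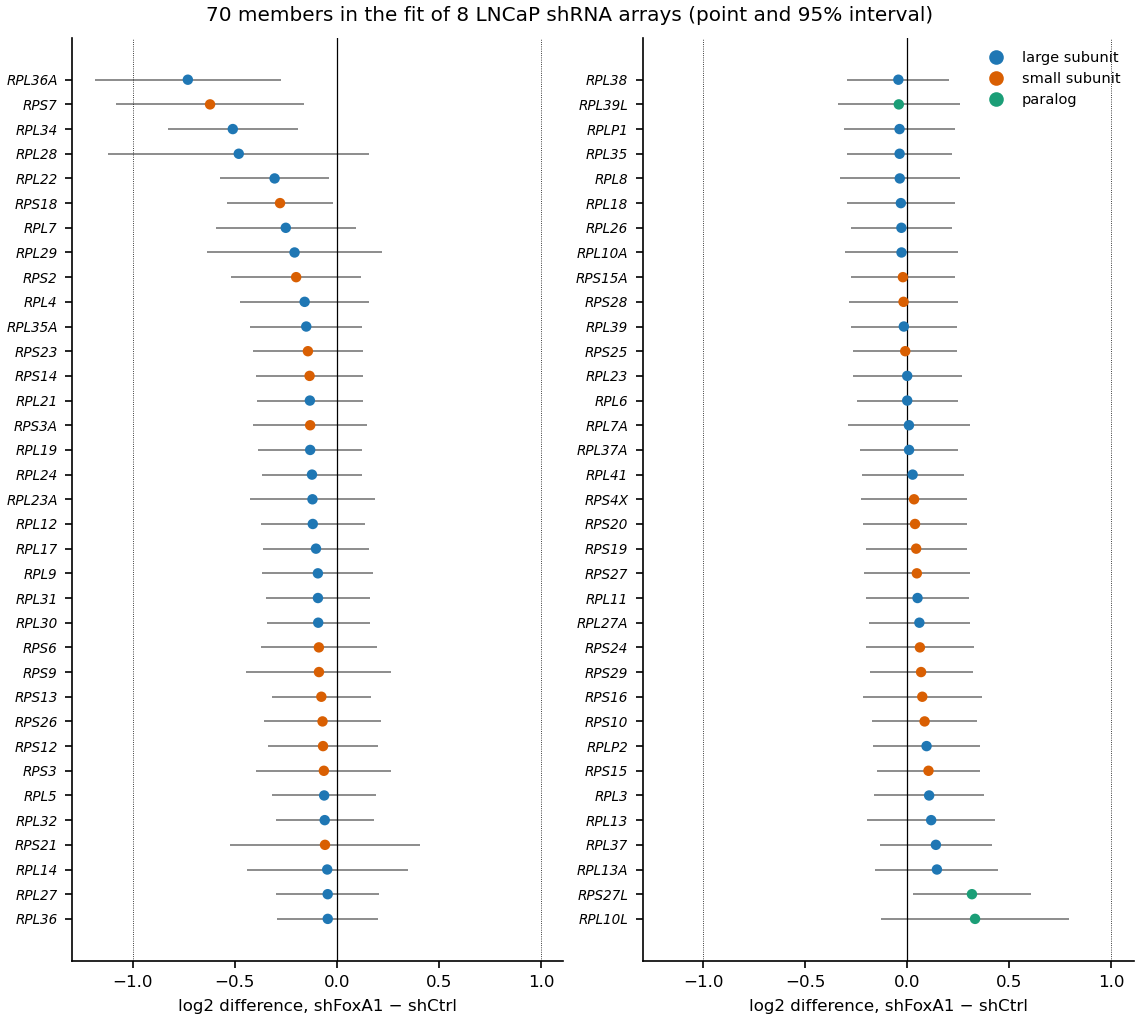
Log2 difference between shFoxA1 and shCtrl for each of 70 ribosomal protein genes, with its 95% interval from the limma fit of 8 LNCaP arrays (4 against 4), ordered by size and coloured by subunit; dotted lines mark 2-fold. RPL36A, RPS7 and RPL34 lie lowest, RPL10L and RPS27L highest, and the intervals of 6 members leave out 0.

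The 95% interval of the difference lay within 1.5-fold either way for 62 of the 70 members and within 2-fold for 67, with a median half-width of 0.27 on the log2 scale. The members that code for the acidic stalk proteins, which recruit elongation factors, were near 0: the log2 difference was -0.04 (SE 0.12) for RPLP1 and 0.09 (SE 0.11) for RPLP2. RPL5 and RPL11, which bind MDM2 when ribosome assembly is disturbed, gave -0.06 (SE 0.11) and 0.05 (SE 0.11). RPS6, the substrate of S6 kinase, gave -0.09 (SE 0.12). The limma adjusted p of these 5 genes lay between 0.641 for RPLP2 and 0.871 for RPLP1.

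In size, the differences of the members were smaller in median than those of other bright genes, which was not tested. The median absolute log2 difference was 0.07 in the members, 0.20 in all genes and 0.17 in the 189 other genes that were at least as bright as the lower quartile of the members, of which 4.23% were called. Among the members, the larger differences were in the dimmer ones. The 52 members with a mean log2 level above 12 had differences from -0.28 to 0.32 with a median absolute value of 0.06, and the 18 others from -0.73 to 0.33 with a median absolute value of 0.14. The value of 12 was chosen after the differences were seen.

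**Figure D2:**
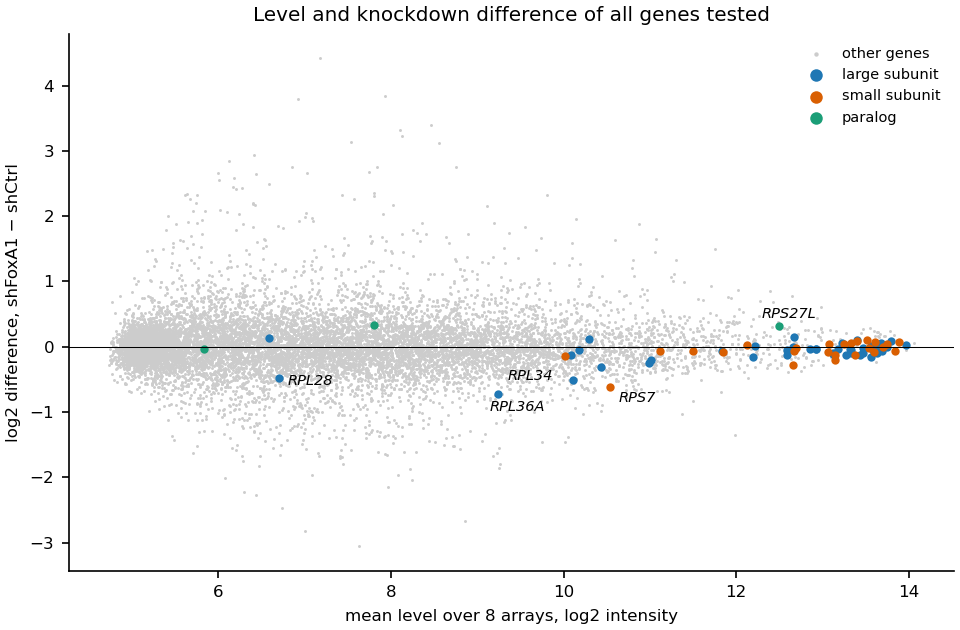
Log2 difference between shFoxA1 and shCtrl against the mean log2 level over 8 LNCaP arrays, for 11892 genes (grey) and for the ribosomal protein genes by subunit. The members crowd at the bright end within 0.32 of 0, while RPL36A, RPL34, RPS7 and RPL28 are dimmer and lower.

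RPL36A, a large-subunit protein encoded on the X chromosome, had the largest difference. Its log2 level was 10.23, 10.06, 9.14 and 9.01 on the shCtrl arrays of replicates 1 and 2, R1881 and hormone-deprived medium, and 8.81, 9.65, 8.81 and 8.26 on the matching shFoxA1 arrays. The shFoxA1 array was the lower one in each of the 4 pairs, although the groups overlap because the shCtrl arrays of the named media were about as low as the shFoxA1 arrays of the numbered ones. The fitted difference was -0.73 (SE 0.20), or 1.66-fold lower, with a limma adjusted p of 0.0586. It lay between -0.97 and -0.50 over the 18 alternative settings, of which 2 passed. A second RPL36A probe was undetected in every pair, so the difference rests on 1 probe.

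RPL34, another large-subunit protein, gave 10.43, 10.75, 10.19 and 10.07 on the shCtrl arrays and 9.82, 10.20, 9.85 and 9.54 on the shFoxA1 arrays. All 4 pairs ran the same way, by 0.34 to 0.61, and the groups overlapped only in that the shFoxA1 replicate 2 array lay above the 2 lowest shCtrl arrays. The fitted difference was -0.51 (SE 0.14, limma adjusted p = 0.0587). A second, dimmer RPL34 probe gave -0.20 (SE 0.19, limma adjusted p = 0.598), with -0.48, -0.23, 0.00057 and -0.07 in the 4 pairs, so that the 2 probes of this gene disagree in size.

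RPS7, a small-subunit protein that also binds MDM2, gave 11.35, 11.41, 10.49 and 10.13 on the shCtrl arrays and 10.07, 10.84, 10.30 and 9.68 on the shFoxA1 arrays. The difference was -1.28 in the replicate 1 pair and -0.19 to -0.56 in the others, with groups that overlap across media, and the fit gave -0.62 (SE 0.20, limma adjusted p = 0.0925). Its second probe gave much the same values, with -1.35, -0.60, -0.13 and -0.50 in the pairs and -0.65 (SE 0.21, limma adjusted p = 0.108) in the fit.

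The remaining members with an unadjusted p under 0.05 differed less. RPL22, which has a close paralog in RPL22L1, was lower in all 4 pairs by 0.11 to 0.44, with a fitted difference of -0.30 (SE 0.12, limma adjusted p = 0.138). RPS18 was lower in all 4 by 0.16 to 0.36, with -0.28 (SE 0.11, limma adjusted p = 0.161). RPS27L, the p53-inducible paralog of RPS27, was the 1 member on the higher side: its log2 level was 12.21, 12.44, 12.23 and 12.47 with shCtrl and 12.88, 12.62, 12.39 and 12.72 with shFoxA1, a fitted difference of 0.32 (SE 0.13, limma adjusted p = 0.154). The RPS27L groups overlap at the shFoxA1 array with R1881. RPS27 itself gave 0.05 (SE 0.11). RPL10L, an intronless copy of RPL10 known from testis, had a similar difference of 0.33 (SE 0.20, limma adjusted p = 0.330). RPL28 stood on 1 pair, with -1.72 in replicate 1 and -0.02 to -0.12 in the other 3, and a fitted -0.48 (SE 0.28, limma adjusted p = 0.310). The next highest were RPL13A at 0.14, RPL37 at 0.14, RPL13 at 0.12 and RPL3 at 0.11.

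**Figure D3:**
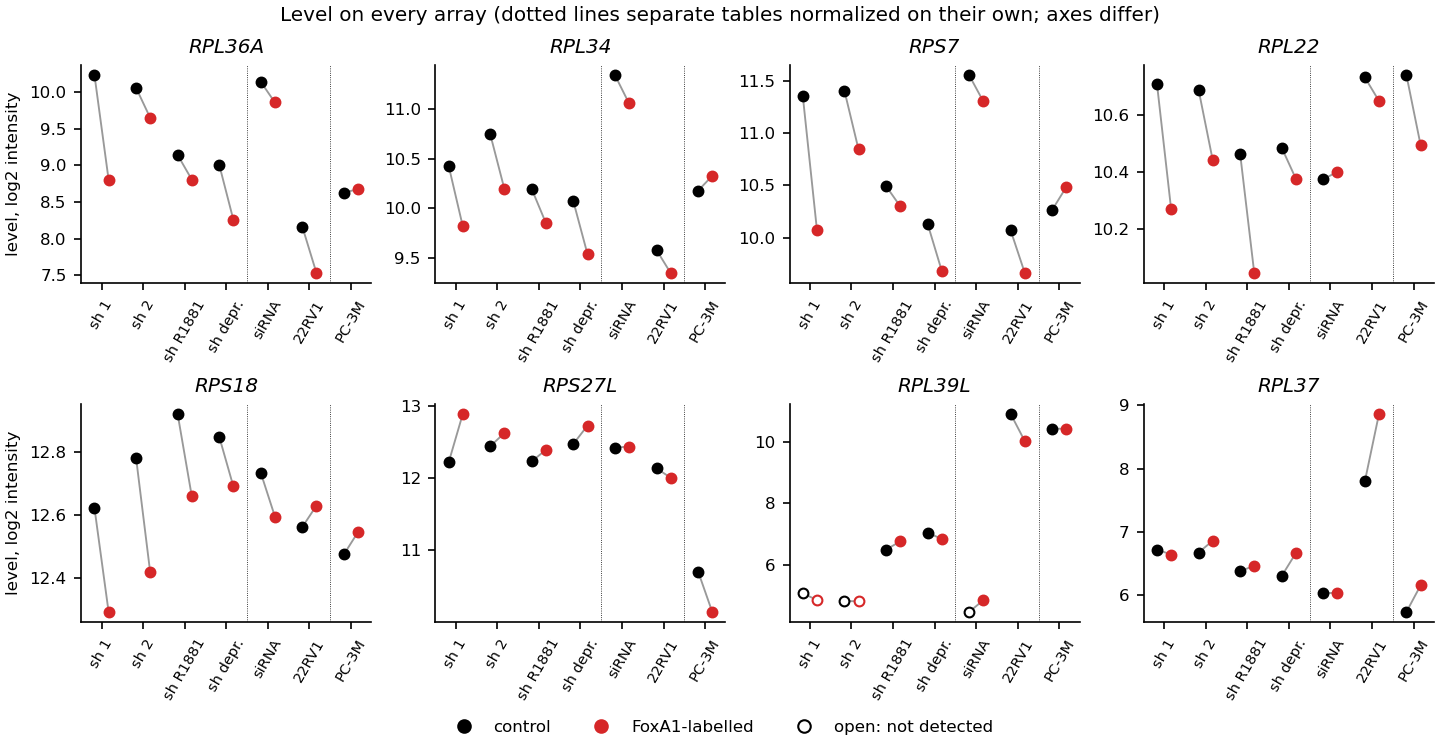
Log2 level of 8 ribosomal protein genes on all 14 arrays, joined by pair, with control arrays black, FoxA1-labelled arrays red and undetected values open. RPL36A, RPL34 and RPS7 are lower on the FoxA1 array in all 6 knockdown pairs and not in PC-3M, and the brightest RPL39L probe is high in 22RV1 and PC-3M and low or undetected in LNCaP.

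The numbered replicates alone, fitted as a contrast of 6 group means, had wider errors. Again 0 of 70 members passed, against 2.62% of all genes, and 3 had an unadjusted p under 0.05, or 4.29% against 25.1%. These were RPS7 at -0.92 (SE 0.28, limma adjusted p = 0.123), RPL36A at -0.92 (SE 0.30, limma adjusted p = 0.141) and RPL34 at -0.58 (SE 0.22, limma adjusted p = 0.179). The median of the members was -0.10, with 50 below 0, beside -0.01 for all genes, of which 50.6% lay below 0. The replicate 1 pair had the most members apart: 18 of 69 were at least 1.2-fold lower, against 33.6% of all genes detected, and 3 higher, against 32.8%. RPL28, RPL36A and RPS7 were at least 2-fold lower there, against 6.86% of genes, and 0 members were 2-fold higher, against 8.33%. In the replicate 2 pair 6 were at least 1.2-fold lower, against 28% of genes, and 0 higher, against 27.4%. No member of that pair reached 2-fold, against 3.59% of genes on the higher side and 2.46% on the lower. Without the shFoxA1 replicate 2 array, 3 members passed in this contrast (RPS7, RPL36A and RPL28), against 7.99% of all genes.

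In the R1881 pair the members spread in both directions. RPL7 was lowest at -0.71, followed by RPL22 at -0.42 and RPS26 and RPS6 at -0.37. Second probes of RPS26 and RPS6 gave -0.07 and 0.18. RPL10L was highest at 0.59, followed by RPS21 at 0.55, RPS9 at 0.43 and RPS3 at 0.38. At 1.2-fold, 12 of 70 members were higher and 7 lower, against 24.1% and 24.2% of genes. In the hormone-deprived pair RPL36A, RPL34, RPS7 and RPL29 were lowest, at -0.75, -0.53, -0.45 and -0.40. RPL37, RPL13A, RPS27L and RPL7A were highest, at 0.36, 0.27, 0.25 and 0.20. The second RPL29 probe gave -0.54 in this pair, and the second, dim RPL37 probe -0.29. Here 2 members were at least 1.2-fold higher and 4 lower, against 18.1% and 20.5%. Neither pair had a member 2-fold apart, against 1.92% of genes higher and 1.93% lower with R1881 and 1.15% and 0.671% in hormone-deprived medium.

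**Figure D4:**
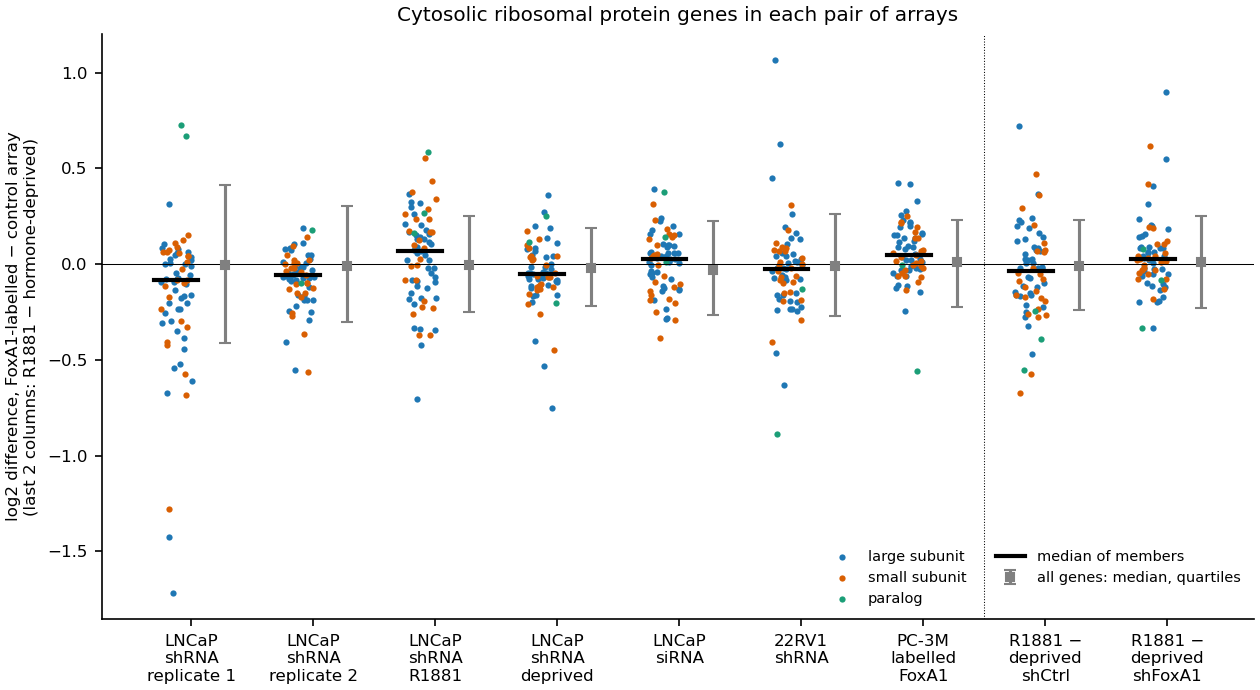
Log2 difference of every ribosomal protein gene in each pair of arrays, FoxA1-labelled minus control for 7 pairs and R1881 minus hormone-deprived for the 2 LNCaP shRNA lines. Points are genes coloured by subunit, bars the member medians, and grey squares with whiskers the median and quartiles of all genes detected; every member median lies between -0.08 and 0.07.

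The other knockdowns had 1 array a side and no test. In the LNCaP siRNA pair the median member difference was 0.03, with 41 members above 0 and 29 below, and -0.03 for all genes. Members at least 1.2-fold apart numbered 3 higher and 4 lower, against 22.1% and 25.2% of genes, and 0 reached 2-fold, against 2.27% and 1.27%. The lowest were RPS15 at -0.38, RPS26 and RPL34 at -0.29 and RPL36A at -0.28, and the highest RPL23A at 0.39, RPS28 at 0.31 and RPL7 at 0.24. RPL39L, at 0.38, was not well above background on the control array with this probe, and its second probe gave -0.13. The RPS15 value is from another probe than on the LNCaP shRNA arrays, and a second RPS26 probe gave -0.08. In 22RV1, a line derived from a prostate cancer xenograft, the median was -0.02, with 27 above 0 and 41 below, and -0.01 for all genes. This direction depends on the scaling: the member median was 0.22 with cyclic loess and -0.42 with median scaling. The latter lay above or below the median of all genes depending on which were counted, -0.45 for genes detected in this pair and -0.38 for all genes detected in the table. The lowest members there were RPL39L at -0.89, RPL36A at -0.63, RPL29 at -0.46 and RPS7 at -0.41. The highest were RPL37 at 1.06, the 1 member at least 2-fold higher (against 1.84% of genes), RPL14 at 0.62, RPL23 at 0.45 and RPS23 at 0.31. RPL37 fell short of 2-fold under 4 other settings, with 0.96 at an offset of 50, 0.86 without background correction, 0.82 with cyclic loess and 0.27 with median scaling. A second, dim RPL37 probe gave 0.54 in this pair. At 1.2-fold, 4 members were higher and 5 lower, against 25% and 25.8% of genes, and 0 were 2-fold lower, against 1.44%.

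Across the 6 knockdown pairs a few members kept 1 sign. RPL36A, RPL34, RPS7, RPS13, RPL30 and RPL32 were lower in all 6, which is 8.57% of the 70 members against 12.3% of 11471 genes measured in all 6. Members higher in all 6 numbered 0, against 9.91% of genes. RPL36A differed by -0.28 to -1.43, RPL34 by -0.23 to -0.61 and RPS7 by -0.19 to -1.28. The other 3 were at most 0.20 lower in any pair. The second RPS7 probe was also lower in all 6, with -0.13 in the siRNA pair and -0.38 in 22RV1, whereas the second RPL34 probe was 0.47 higher in the siRNA pair and 0.04 higher in 22RV1. In 5 of these 6 pairs the FoxA1 array also had the lower mean intensity.

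On the PC-3M array labelled FoxA1, on which FOXA1 was the lower, the median member difference was 0.05, with 44 above 0 and 25 below. For all genes detected the median was 0.01, with 51.0% above 0. RPS27L was the lowest at -0.56, from 10.70 to 10.15, followed by RPL22 at -0.25, RPL11 at -0.15 and RPS6 at -0.14. RPL23A and RPL37 were the highest at 0.42 each, then RPL7 at 0.33 and RPL14 at 0.28. Second probes of RPL11 and RPS6 ran the other way, at 0.08 and 0.14, and that of RPL14 the same way, at 0.52. RPL36A, RPL34 and RPS7 gave 0.05, 0.15 and 0.22, and RPS27L was thus the 1 member at least 1.2-fold lower, against 4 at least 1.2-fold higher. Over all genes 21.4% were at least 1.2-fold lower and 21.8% higher. No member reached 2-fold, against 1.05% of genes higher and 1.43% lower.

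R1881 against hormone-deprived medium, with 2 arrays a side, left the ribosomal protein genes without a call. With knockdown as a term, 0 of 70 members passed against 0.252% of all genes, and 0 had an unadjusted p under 0.05 against 11.6%. The median was -0.01, with 32 above 0 and 38 below. It was -0.10 with cyclic loess and 0.18 with median scaling, where the median of all genes was 0.185. The largest were RPL29 at 0.55 (SE 0.26, limma adjusted p = 0.481) and RPS7 at 0.49 (SE 0.28, limma adjusted p = 0.569), followed by RPL28 at 0.39, RPL36A at 0.34, RPL7 at 0.33 and RPS26 at 0.24. The lowest were RPS3 at -0.33, RPS9 and RPL39L at -0.32, RPS27L and RPL8 at -0.29 and RPL13A at -0.23. The 52 members with an interval within 1.5-fold and the 67 within 2-fold show how much this contrast could resolve.

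Within each line the R1881 differences were single values. In shCtrl cells RPL7 was 0.72 higher, RPS26 0.47, RPL28 0.36 and RPS7 0.36 higher, and RPS9 was at -0.67, RPS3 at -0.57, RPL39L at -0.55 and RPL8 at -0.47. A second RPL39L probe, undetected on both of these arrays, gave -0.11, and in shFoxA1 cells it gave 0.11. In shFoxA1 cells RPL29 was 0.90 higher, RPS7 0.62, RPL36A 0.55 and RPS21 0.42 higher, and RPS27L and RPL22 were both at -0.33. At 1.2-fold, 5 members were higher and 9 lower in shCtrl, against 22.5% and 23% of genes, and 6 higher and 2 lower in shFoxA1, against 23.8% and 22.3%. No member was 2-fold apart in either line, against 1.5% of genes higher and 1.37% lower in shCtrl and 1.26% and 1.77% in shFoxA1. The interaction, which tests whether the knockdown difference depends on the medium, gave 0 members and 0 genes at an adjusted p of 0.05 in limma, and 0 members against 1.61% of genes at an unadjusted p under 0.05. Its median over the members was 0.12, and -0.16 with median scaling, where the median of all genes was -0.26. The 95% interval of the interaction lay within 2-fold for 25 of 70 members, with a median half-width of 0.85 on the log2 scale. Dependences on the medium of 2-fold or more could thus be missed as well as smaller ones.

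Against the R1881 arrays, described as replicate 3, the numbered arrays differed less in the members than in genes at large, which was not tested. The median absolute difference was 0.21 in shCtrl and 0.16 in shFoxA1 for the members and 0.29 and 0.30 for all genes, and 2 of 70 members in each line were at least 2-fold apart, against 3.84% and 5.34% of genes. The mean of replicates 1 and 2 minus the R1881 array was 1.00 for RPL36A, 0.95 for RPL29 and 0.89 for RPS7 in shCtrl cells, and 0.42, 0.29 and 0.16 in shFoxA1 cells. RPL14 went the other way by -0.37 and -1.02, and its second probe did so in shFoxA1 alone. By its brightest probe RPL39L was also lower on the numbered arrays, where that probe was undetected, so no size is given. Its second probe, near background, was not lower there. With shCtrl it gave 5.279 and 4.988 against 4.869 with R1881, and with shFoxA1 5.315 and 5.293 against 5.19. The median member value was 0.07 and -0.04, in shCtrl and shFoxA1.

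Among the paralogs, RPL39L and RPL10L differed in level between the lines. RPL39L, a copy of RPL39 known from testis and reported in several tumours, had a log2 level of 10.90 and 10.02 in 22RV1 and 10.42 and 10.42 in PC-3M. These are levels of its brightest probe. In LNCaP this probe was undetected on the 4 numbered shRNA arrays and with the control siRNA, at 4.84 with FoxA1 siRNA, and between 6.49 and 7.04 on the R1881 and hormone-deprived arrays. A second, dimmer RPL39L probe was detected at 4.79 with the control siRNA and near background, at 4.87 to 5.31, on the LNCaP shRNA arrays, of which 3 detected it. Within the table that holds both lines, this probe was 36.6-fold higher on the 22RV1 shCtrl array than on the LNCaP siCtrl array, and 10.5-fold to 38.5-fold higher over 6 settings, the lowest being without background correction. Between the 22RV1 arrays it differed by -1.24, in the direction of the -0.89 of the first. RPL10L ran the other way, at 8.96 in LNCaP siCtrl and not well above background in 22RV1. Against the lowest level of a detected probe it was at least 22.1-fold apart, and at least 5.91-fold without background correction. Among the other members the 22RV1 control array minus the LNCaP siCtrl array was -2.43 for RPL29, -1.98 for RPL36A and -1.77 for RPL34. It was -1.49 for RPS7 and 1.77 for RPL37. These are values of the brightest probes. Second probes of RPL29 and RPS7 were also lower on the 22RV1 control array. That of RPL34 was higher there, with a mean log2 level of 8.85 over the siRNA pair and 9.17 over the 22RV1 pair. A second, dim RPL37 probe, with pair means of 5.23 and 5.46, was not higher on the 22RV1 control array. Of 70 members 7 were at least 2-fold lower and 2 at least 2-fold higher on the 22RV1 array, against 13.2% and 16.5% of genes. The member median depends on the scaling, with -0.34 after quantile normalization, 0.02 with cyclic loess and -0.95 with median scaling. These are single arrays of lines that also differ in construct.

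Members with several probes gave a check within genes. There were 44 further probes kept for 32 members, and 29 of them had the sign of the brightest probe. Some differed in size. Dimmer probes gave -0.59 for RPL6 (SE 0.17, limma adjusted p = 0.0754) and -0.49 for RPS15A (SE 0.17, limma adjusted p = 0.119). Their brightest probes gave -0.00076 and -0.02. A dim RPS29 probe gave 0.44 (SE 0.18, limma adjusted p = 0.184), beside 0.07 for the brightest. The member counts near 0 thus hold for the brightest probes. At the level of probes, 1 of 114 member probes passed an adjusted p of 0.05, against 6.17% of all probes kept. It was a dim RPL37A probe with a mean log2 level of 5.76 and a difference of -0.61 (SE 0.14, limma adjusted p = 0.042), while the brightest RPL37A probe, at 13.57, gave 0.01 (SE 0.11). Ribosomal proteins have many processed pseudogenes, and the probes' positions are not given in the sources used here, so signal from such copies cannot be told apart.

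Other genes of the translation machinery were set beside the members, in lists drawn up for this comparison. Of 49 genes for ribosome biogenesis and RNA polymerase I, 3 fell after FoxA1 knockdown and 0 rose, which is 6.12% against the 7.9% of all genes called: LYAR, a nucleolar factor, at -0.82 (SE 0.17, limma adjusted p = 0.0299), RRP1B, a pre-ribosomal RNA processing factor, at -0.59 (SE 0.12, limma adjusted p = 0.0293), and NAT10, which acetylates ribosomal RNA, at -0.47 (SE 0.11, limma adjusted p = 0.0392). Their median was -0.38, with 45 of 49 below 0. It was -0.36 with cyclic loess and -0.60 with median scaling, where the median of all genes was -0.145. In the siRNA pair the median was -0.22 with 43 of 51 below 0, in 22RV1 -0.01 and in PC-3M 0.08. In the R1881 contrast it was 0.27 with 40 of 49 above 0, and 0 passed. The difference between these genes and the ribosomal protein genes was not tested.

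Mitochondrial ribosomal proteins, which form the separate ribosome of that organelle and were added after the data were seen, also had a lower median. Of 76 genes, 2 fell, MRPS27 at -0.64 (SE 0.14, limma adjusted p = 0.0343) and MRPL12 at -0.63 (SE 0.14, limma adjusted p = 0.0358), and 0 rose, which is 2.63% against 7.9% of all genes. Their median was -0.28 with 70 below 0 in the LNCaP shRNA fit, -0.16 in the siRNA pair, -0.15 in 22RV1 and 0.04 in PC-3M. In the LNCaP shRNA fit it was -0.27 with cyclic loess and -0.52 with median scaling, where the median of all genes was -0.145.

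**Figure D5:**
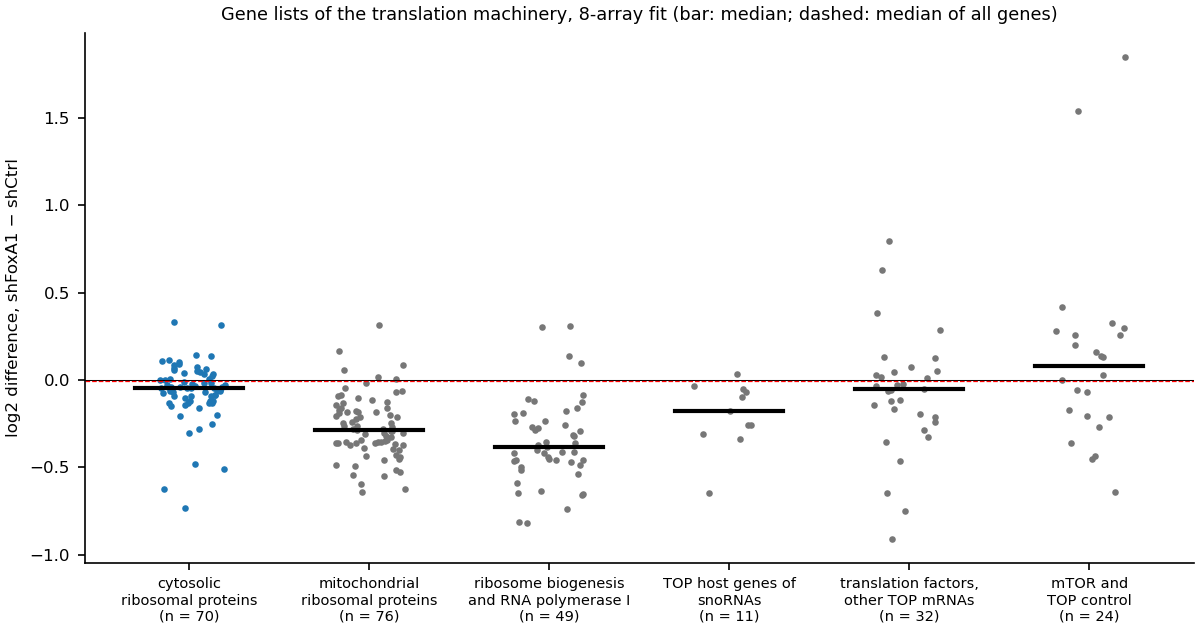
Log2 difference between shFoxA1 and shCtrl in the limma fit of 8 LNCaP arrays for each gene of 6 lists, with the list median as a bar and the median of all genes dashed. The 70 cytosolic ribosomal proteins have a median of -0.04, the 76 mitochondrial ones -0.28 and the 49 biogenesis genes -0.38.

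Genes that share the TOP motif or its control were counted in the same way. Of 32 translation factors and other genes with TOP mRNAs, 1 rose and 1 fell, which is 6.25% against 7.9% of all genes. Their median was -0.05. TINF2, of the telomere-binding complex, was 0.80 higher (SE 0.15, limma adjusted p = 0.0218) and NAP1L1, a histone chaperone, at -0.75 (SE 0.19, limma adjusted p = 0.0471). Of 11 TOP host genes of small nucleolar RNAs, 1 fell, which is 9.09% against 7.9%. It was SNHG1, at -0.64 (SE 0.12, limma adjusted p = 0.0214). The median of the 11 was -0.17 with 10 below 0. Of 24 genes of a list that joins growth-controlling transcription factors with regulators of mTOR and TOP mRNAs, 2 rose, which is 8.33% against 7.9%. They were MXD1, a transcriptional repressor of the first kind, by 1.85 on the log2 scale (SE 0.29, limma adjusted p = 0.015) and DEPTOR, an inhibitor of mTOR, by 1.54 (SE 0.16, limma adjusted p = 0.00386). Of 14 genes of ribosomal stress and p53, 0 passed in limma, against 7.9% of all genes, with a median of 0.04. RPL22L1, a relative outside the member rule that was added after the data were seen, gave -0.52 (SE 0.19, limma adjusted p = 0.119), beside the -0.30 of RPL22.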

How the data were processed

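Per the labels' protocols, total RNA was hybridized at 1 core facility for the LNCaP shRNA arrays and at another for the rest, and the submitters' processing notes name GenomeStudio. The authors deposited probe intensity that was not normalized between arrays, background-subtracted in the LNCaP shRNA and PC-3M tables and raw in the siRNA and 22RV1 table, as the values show. Per the file headers, the first 2 tables also held detection p-values; the columns so headed in the third, which 4 arrays share, hold whole numbers, so these 4 columns were left out. The deposited series matrix, also intensity, was one alternative.

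The 3 tables were treated separately (limma 3.58.1 under R 4.3.3): normexp correction (background from detection p-values, or from the intensity mode), an offset of 16, log2 and quantile normalization. Probes counted as detected at p below 0.05, or above the mode plus 1.645 SD. Genes needed detection on 2 of 8 arrays, or 1 in the other tables. The test was limma (lmFit, eBayes), two-sided, with Benjamini-Hochberg adjustment over all genes. Pairs of single arrays were described at 1.2-fold and 2-fold. The code was tested on simulated data. The number of arrays limits precision.

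The members, gene lists and rule for named genes were chosen with earlier results of these data known. The rule named RPLP1, RPLP2, RPL5, RPL11, RPS6 and the paralogs, the 6 largest differences each way in both fitted contrasts, the 4 largest each way in each pair and up to 4 called genes of each list. Same-numbered arrays did not deviate together (correlation -0.173), so they were not treated as pairs. Alternatives changed the offset, background, normalization, filter, probe rule, source and arrays. The comparison of the 22RV1 and LNCaP control arrays, with its settings, was added after the data were seen.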

Additional observations from a re-analysis of the deposited data

Results flagged for a closer look

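A few members moved one way in all 4 LNCaP shRNA pairs and the other way in another line, which has 1 array a side, so these differences were not tested. The pattern was no more frequent than in genes at large: 5 of 70 members (7.14%) had it in 22RV1, against 10.8% of 11471 genes, and 10 of 69 (14.5%) in PC-3M, against 18.6% of 10216. The brightest probe was chosen in each table, and RPS15, among the 5, had a different one in 22RV1. That probe gave -0.16 in the LNCaP shRNA fit (SE 0.12, limma adjusted p = 0.477), the other sign to its brightest probe there. The members named by the rule are given here. RPL36A was at -0.34 to -1.43 in the LNCaP pairs and at 0.0515 in PC-3M. RPL34 was at -0.34 to -0.61 and at 0.15 in PC-3M. RPS7 was at -0.19 to -1.28 and at 0.22 in PC-3M. RPS18 was at -0.16 to -0.36 in LNCaP and at 0.0682 in 22RV1 and 0.0715 in PC-3M. RPS27L was at 0.16 to 0.67 in LNCaP, at -0.13 in 22RV1 and at -0.56 in PC-3M. In 22RV1, RPS27L was at 0.02 with cyclic loess and RPS18 at -0.385 with median scaling. The PC-3M array labelled FoxA1 had the lower FOXA1 level, so its direction follows the label and not the level of FOXA1.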

How the results depend on the processing

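The number of members past the test in the LNCaP shRNA fit was 0 as reported and changed in 3 of 18 settings: 1 with an offset of 50 (RPL34), 3 with median scaling (RPS7, RPL34 and RPL36A) and 2 when detection on all 8 arrays was required (RPL34 and RPL36A), where fewer genes were tested. Over the same settings the count of all genes ran from 24, without background correction, to 1456, with median scaling. RPL36A, RPL34, RPS7, RPL22, RPS18 and RPS27L kept their direction in all 18. With median scaling the median of all genes in this fit was -0.15 and the member median -0.216; the latter was 0.175 in the R1881 contrast, -0.159 in the interaction, -0.420 in 22RV1, 0.263 for R1881 in shCtrl and 0.125 in shFoxA1. With cyclic loess it was -0.0226 in the numbered replicates, -0.0977 in the R1881 contrast, 0.217 in 22RV1 and -0.128 for R1881 in shCtrl. The cause was not tested. Leaving out single arrays gave 0 to 3 members in the numbered replicates, 3 without shFoxA1 replicate 2. With the replicate block 0 members passed in either fit, with 527 genes in the first and 55 in the numbered replicates, and with crossed numbers, tried after seeing the data, 0 members and 1097 genes passed in the numbered replicates. The block changed no call of a member. Low signal over background limits RPL10, RPL3L and RPL39L, and saturation of the brightest probes was not tested.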
